A study of Mus musculus with 2 samples.

Results

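Transcripts of the chaperones, folding enzymes, stress sensors and quality control factors of the endoplasmic reticulum (ER) were compared between the intestine of wild-type (WT) mice and of mice carrying a disrupted copy of Erap1, the gene of an aminopeptidase that trims antigenic peptides inside the ER. The set was fixed by gene symbol as 40 genes. Of these, 38 were found among the 40879 gene symbols of the count files, and the other 2, Ero1l and Ero1lb, were found under their current symbols Ero1a and Ero1b and are given apart. Each genotype had 1 library, made from equal amounts of intestinal RNA of 3 mice. The mice were on a C57BL/6 background and 8 weeks old when the study began. The labels name no treatment, and the study describes its sequencing comparison of the genotypes as made under steady-state conditions. The ERAP1+/- mice descended from animals carrying the tm1a allele of Erap1 that were crossed to a Cre-expressing strain, with loxP sites around exons 6 and 7, while the WT mice carried no disrupted allele. The allele came from 1 clone of embryonic stem cells, the promoter that drove Cre was not given in the sources used here, and the animals were described as germ-free and kept in a specific pathogen-free facility. Counts of Erap1 itself were 229 in WT against 2 in the other library, a ratio of 0.00730 (95% interval 0.000878 to 0.0267). Reads from the 3' end lie outside the deleted exons, and a level this low goes against a label under which 1 intact copy remains, so the second sample is called the library labelled ERAP1+/-.

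The ER folds nearly every protein that a cell secretes or places in its membranes. When unfolded proteins accumulate there, the sensors IRE1, PERK and ATF6 start the unfolded protein response: IRE1 splices the mRNA of XBP1, PERK slows translation and favors ATF4 and its target CHOP, and ATF6 is cut to release a transcription factor. The response raises chaperones and the machinery that returns misfolded proteins to the cytosol for degradation. In the gut, goblet cells, which secrete mucin, and plasma cells, which secrete IgA, are known for heavy ER use, and IRE1 has a second form, IRE1β, found in mucus-producing epithelium.

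The libraries held 8114826 (WT) and 8907515 (ERAP1+/-) counted reads. The markers of intestinal epithelium were present in both, from 86 reads (Cdx2 in WT) to 27348 reads (Lgals4 in ERAP1+/-). Library sizes were corrected with TMM, a trimmed mean of the log ratios between samples, and levels are given as CPM, counts scaled to library size, or as log2(CPM + 1). Because reads came from the 3' ends of transcripts, no scaling by length was applied and levels are not ranked between genes. With 1 library per genotype no p-value is given, and differences between the pools of mice and between the genotypes cannot be told apart. Ratios are ERAP1+/- over WT with exact 95% intervals from the read counts, which cover counting error only. In bulk tissue, a different number of cells of a type and a different amount of RNA per cell cannot be told apart.

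None of the 38 genes passed a 2-fold difference in log2(CPM + 1), against 5.34% of the 8013 genes whose log2(CPM + 1) reached 4 in either library. Only the 34 members that reached this level could be called. Derl3, under it with 5 and 21 reads, had a ratio of 3.51 but a log2 difference of 0.99. Of the 8013 genes, 1.39% were higher in the library labelled ERAP1+/- by that rule and 3.96% were lower. Smaller differences leaned to higher levels in the library labelled ERAP1+/-: 31 of the 38 genes were higher and 7 were lower. Scaled to epithelial markers, 37 of the 38 were higher and 1 was lower, while 78.7% of all genes at the level were higher. Under TMM the median log2 difference of the members was 0.23, where the median of all 8013 genes was -0.03. Of the 34 members that reached the level, 27 were higher (79.4%), while 47.3% of all genes at that level were. The level was reached in both libraries by 31 members, in the library labelled ERAP1+/- alone by Ern1 and Edem2, and in the WT library alone by Eif2ak3. Dnajb9, Creld2, Derl3 and Trib3 stayed under it in both.

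The counting intervals lay above 1 for 22 of the 38 genes, below 1 for 4 and on both sides of 1 for 12. Among the 34 members at the level, 61.8% had an interval above 1 and 11.8% an interval below 1. The same shares over all 8013 genes were 25.5% and 32.4%. The share of intervals above 1 was thus higher in the list than among all genes, and the share below 1 was lower. Whether an interval leaves out 1 also depends on read depth, for which the 8013 genes were not matched to the members. This split depended on how the libraries were scaled. With the total count, 25 of the members at the level had an interval above 1 and 2 an interval below 1. Of all genes at the level, 38.3% and 22.2% did. Together the members took 36576 reads in the WT library (0.451% of its total) and 50439 in the library labelled ERAP1+/- (0.566%).

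**Figure D1:**
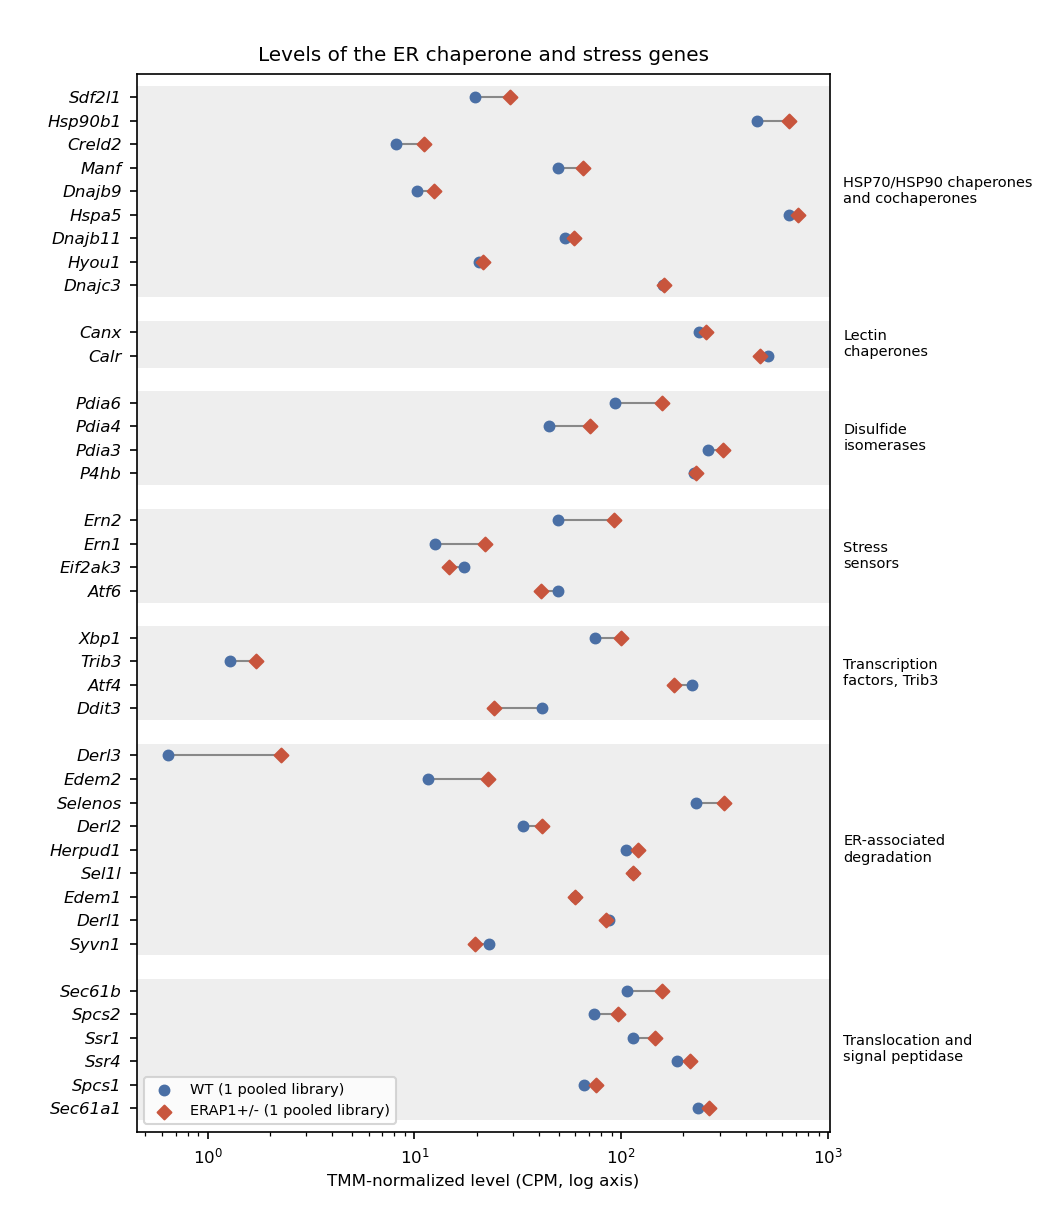
Level of each of the 38 genes in the WT library (circles) and the library labelled ERAP1+/- (diamonds), in TMM-normalized CPM on a log axis, grouped by role. The diamond lies to the right of the circle for 31 genes and to the left for 7, and under scaling to epithelial markers it would lie to the left only for Ddit3.

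Among the chaperones of the HSP70 and HSP90 families and their partners, all 9 genes measured were higher in the library labelled ERAP1+/-, with log2 differences from 0.01 to 0.55 and a median of 0.25. Hspa5 encodes BiP, the main HSP70 of the ER lumen and the protein that keeps the sensors inactive, and lies on chromosome 2 of GRCm38 from 34771970 to 34777547. It had 5007 reads in WT and 6657 in the library labelled ERAP1+/-, or 644 and 716 CPM, a ratio of 1.11 (1.07 to 1.15). Hsp90b1 encodes GRP94, the HSP90 of the ER, and had 3540 and 6000 reads, a ratio of 1.42 (1.36 to 1.48). The intervals of these genes did not overlap, so that Hsp90b1 was higher by more than Hspa5 at this depth. The exons of Hsp90b1 overlap in part with those of Gm15344 on the same strand, and those of Manf with Rbm15b.

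The partners of BiP followed in the same direction with wider intervals. Sdf2l1, which works with the J proteins of the ER, had 152 and 270 reads, a ratio of 1.48 (1.21 to 1.82). Manf, a secreted protein of the stress response that binds BiP, had 386 and 607 reads, a ratio of 1.31 with a lower bound of 1.15. These 2, with Hspa5 and Hsp90b1, were the only members of this group with an interval above 1. The intervals of Creld2 (63 and 104 reads), of the J proteins Dnajb9 (80 and 116), Dnajb11 (416 and 550) and Dnajc3 (1242 and 1500), and of the nucleotide exchange factor Hyou1 (160 and 199) all included 1. For Dnajc3, with a ratio of 1.01, the interval was narrow (0.935 to 1.09).

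The promoters of these genes are shown for the elements through which the unfolded protein response is known to act. RefSeq promoter windows of 300 bases (250 before and 50 after the start site, GRCm38.p6) were given for 34 of the 40 genes, Ero1a and Ero1b included. The ER stress element, CCAAT and CCACG separated by 9 bases of any kind, was searched on both strands. It was found in 10 of the 34 genes (29.4%) and in 37 of the 27025 genes with a window (0.137%). Matches are letters only and do not show binding. The capitals mark the fixed blocks in the matches of the chaperones with most reads, an isomerase and a degradation factor, each written 5′ to 3′ on the strand that carries it.
Hspa5: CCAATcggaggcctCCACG
Hsp90b1, far match: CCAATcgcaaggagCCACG
Hsp90b1, near match: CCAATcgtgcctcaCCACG
Calr: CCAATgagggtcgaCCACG
Pdia6: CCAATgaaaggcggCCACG
Derl3: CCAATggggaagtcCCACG
Distances are from the RefSeq start site to the base of the match farthest upstream along the gene, whichever strand carries the match. RefSeq start sites can differ from the ends of the GENCODE genes given as gene positions. The match of Hspa5 begins 65 bases before its RefSeq start (chr2:34772025-34772043, plus strand), which lies inside the GENCODE gene, as the match does. Hsp90b1 carries 2 matches, 212 bases (chr10:86705638-86705656, minus strand) and 107 bases (chr10:86705533-86705551, plus strand) before it, and no other member had more than 1. Those of Calr (chr8:84847075-84847093, plus strand), Pdia6 (chr12:17266491-17266509, plus strand) and Derl3 (chr10:75893242-75893260, minus strand) begin 162, 98 and 156 bases before the start. The remaining matches were in Canx, Creld2, Dnajc3, Ero1b and Syvn1.

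The shorter form of the element, ERSE-II, is ATTGG and CCACG with 1 base between them, and 2 genes held it, against 12 of all 27025 genes (0.0444%). One of them is Herpud1, whose product organizes the degradation complex.
Herpud1: ATTGGgCCACG
It lies 52 bases before the start (chr8:94386377-94386387, plus strand), and the other is in Dnajb11. The ATF4 composite element TTGCATCA was found in 1 of the 34 genes, again Herpud1, and in 1.03% of all genes. The sequence TGACGTG was found in 1, Hspa5, and in 2.22% of all genes. The matches named did not overlap each other. The 11 members by symbol with an ER stress element or ERSE-II had a median log2 difference of 0.15 (9 higher, 2 lower), and the 21 members with a window and neither element had a median of 0.25 (18 higher, 3 lower). The ranges overlapped, from -0.23 to 0.99 with an element and from -0.74 to 0.91 without.

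The lectin chaperones Calr and Canx hold glycoproteins during folding, and calreticulin is also part of the complex that loads peptides on MHC class I. Calr had 3963 reads in WT and 4348 in the library labelled ERAP1+/-. Its ratio was 0.916 (0.878 to 0.957), which turned to a log2 difference of 0.19 when the libraries were scaled to epithelial markers. Canx had 1853 and 2383 reads, a ratio of 1.07 (1.01 to 1.14). The pair thus differed in direction under TMM, and the intervals of their ratios did not overlap.

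The disulfide isomerases, which form and rearrange disulfide bonds, were higher to unequal degrees, and the interval of 1 of the 4 included 1. Pdia6 (chromosome 12, 17266545 to 17284770) had 727 reads in WT and 1471 in the library labelled ERAP1+/-, or 93.6 and 158 CPM. Its ratio was 1.69 (1.55 to 1.85), and its exons overlap in part with those of Atp6v1c2 on the opposite strand. Pdia4 had 347 and 654 reads, a ratio of 1.57 (1.38 to 1.80). Pdia3, known as ERp57, which serves calnexin, calreticulin and the MHC class I loading complex, was less different, with 2031 and 2892 reads and a ratio of 1.19 (1.12 to 1.26). P4hb, the founding isomerase PDI, had 1740 and 2127 reads, a ratio of 1.02 (0.958 to 1.09). The oxidases that recharge these enzymes had few reads: Ero1a had 149 and 197 (ratio 1.10, 0.888 to 1.38), and Ero1b 8 and 27 (ratio 2.82, 1.25 to 7.18).

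The sensors split into a pair that was higher and a pair that was lower under TMM scaling. Ern2 encodes IRE1β and lies on chromosome 7 from 122169893 to 122186207. It had 383 reads in WT and 858 in the library labelled ERAP1+/-, or 49.3 and 92.2 CPM, a ratio of 1.87 (1.66 to 2.12). Ern1, which encodes the widely expressed IRE1α, had 98 and 205 reads, a ratio of 1.75 (1.37 to 2.25). Both forms of IRE1 were higher, and the intervals of their ratios overlapped. Atf6 had 384 and 382 reads, a ratio of 0.831 (0.719 to 0.960). Eif2ak3, the gene of PERK, had 135 and 137 reads, a ratio of 0.848 (0.663 to 1.08). The log2 differences of Atf6 and Eif2ak3 turned to 0.05 and 0.07 with scaling to epithelial markers.

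**Figure D2:**
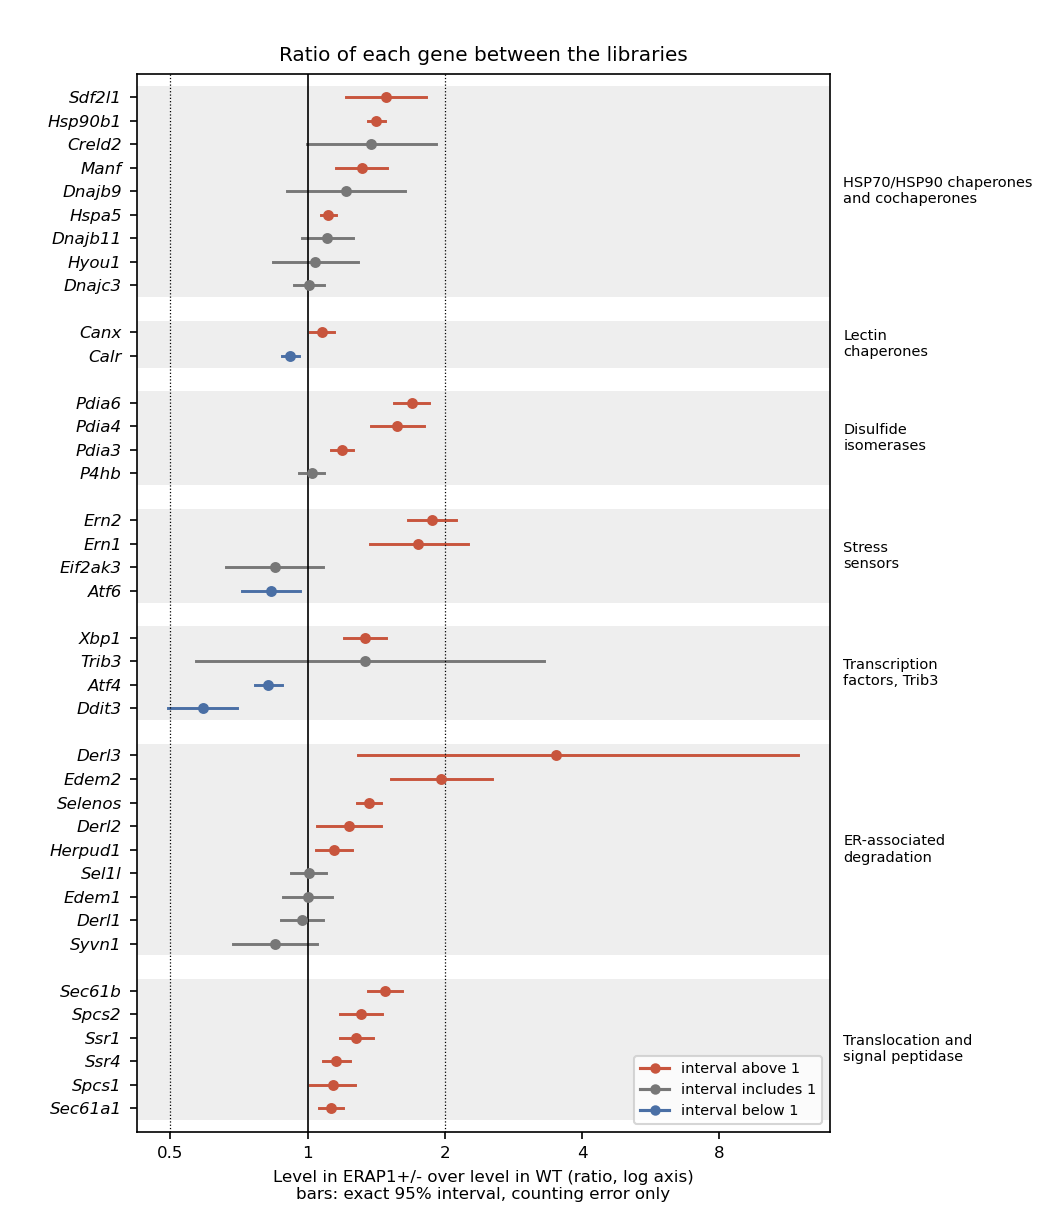
Ratio of the level in the library labelled ERAP1+/- to that in the WT library for each gene, on a log axis under TMM scaling, with exact 95% intervals for counting error, grouped by role. Dotted lines mark 2-fold. The intervals of Calr, Atf6, Atf4 and Ddit3 lie below 1, those of 22 genes lie above 1, and of the low ones only Ddit3 stays below 1 when scaled to epithelial markers.

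The transcription factors downstream of the sensors differed in direction as well. Xbp1 (chromosome 11, 5520659 to 5525893), the target of IRE1, had 579 reads in WT and 925 in the library labelled ERAP1+/-, a ratio of 1.33 (1.20 to 1.48). Counts per gene do not separate its spliced from its unspliced form. Atf4 (chromosome 15, 80255184 to 80257541) had 1711 and 1678 reads, or 220 and 180 CPM, a ratio of 0.819 (0.765 to 0.877), and its log2 difference of -0.29 turned to 0.03 with scaling to epithelial markers. ATF4 protein is set mainly by translation, which RNA counts do not show. Ddit3, which encodes CHOP, had 321 and 226 reads, or 41.3 and 24.3 CPM. This ratio of 0.588 (0.494 to 0.699), a log2 difference of -0.74, was the lowest of the set, and Ddit3 was lower under every scaling tried, from -0.74 to -0.44. The exons of Ddit3 overlap in part with those of Mars on the opposite strand, and whether the authors' counting used strand is not given in the sources used here. Trib3, a target of ATF4 and CHOP, had 10 and 16 reads, too few to resolve a difference (ratio 1.34, 0.570 to 3.29).

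ER-associated degradation recognizes misfolded proteins, moves them to the cytosol and marks them for the proteasome. Edem2, a mannosidase of the first trimming step, lies on chromosome 2 from 155701677 to 155729475 and had 90 reads in WT and 211 in the library labelled ERAP1+/-. Its ratio was 1.96 (1.52 to 2.54). Its relative Edem1 had 466 and 558 reads and a ratio of 1.00 (0.883 to 1.13), and these intervals did not overlap, so that members of the same enzyme family differed unequally. Selenos, which recruits the p97 ATPase to the membrane, had 1788 and 2921 reads, a ratio of 1.36 (1.29 to 1.45), and Herpud1 had 821 and 1125, a ratio of 1.14 (1.05 to 1.25).

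The derlins, proteins of the retrotranslocation channel, showed a graded picture with very different depth. Derl1 had 678 and 789 reads (ratio 0.972, 0.876 to 1.08). Derl2 had 261 and 385 (ratio 1.23, 1.05 to 1.45), and Derl3, the form of secretory cells, 5 and 21 (ratio 3.51, 1.29 to 11.9). The interval of Derl3 overlaps that of Derl2 but not that of Derl1, and it rests on 5 WT reads. The ubiquitin ligase Syvn1 and its partner Sel1l, the core of the HRD1 complex, had no resolved difference, with 179 and 182 reads (ratio 0.849, 0.687 to 1.05) and 884 and 1063 reads (ratio 1.00, 0.918 to 1.10). The log2 differences of Syvn1 and Derl1, below 0 under TMM, were 0.08 and 0.27 with scaling to epithelial markers, and that of Derl1 was 0.08 with the total count.

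All 6 genes for entry into the ER had intervals above 1 under TMM, as did 25.5% of all genes at the level. Each had at least 515 reads in either library, a depth at which small differences can leave out 1. Sec61b, a subunit of the translocation channel, had 826 reads in WT and 1463 in the library labelled ERAP1+/-, a ratio of 1.48 (1.36 to 1.61). The channel-forming subunit Sec61a1 had 1830 and 2461 reads and a smaller ratio of 1.12 (1.06 to 1.19). Of the translocon-associated proteins, Ssr1 had 888 and 1360 reads (ratio 1.28, 1.17 to 1.39) and Ssr4 1441 and 1995 (ratio 1.16, 1.08 to 1.24). Of the signal peptidase subunits, Spcs1 had 515 and 699 reads (ratio 1.13, 1.01 to 1.27) and Spcs2 576 and 901 (ratio 1.31, 1.18 to 1.45). The median log2 difference of the group was 0.28, with a range from 0.17 to 0.56.

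Because the scaling of the libraries moves every ratio alike, each gene was also given as its share of all reads of the 38 members, which does not depend on scaling. The 95% intervals (Clopper-Pearson) of the share did not overlap between the libraries for 18 genes, 9 with a larger share in the library labelled ERAP1+/- and 9 with a smaller one, and overlapped for 20. Over the 8013 genes, taken as shares of their own summed reads, the intervals lay apart with a larger share for 29.7% and with a smaller one for 17.4%, so that separate intervals are common at this depth and their number in the list is no result about it. Hsp90b1 took 9.68% of the member reads in the WT library (9.38% to 9.99%) and 11.9% in the library labelled ERAP1+/- (11.6% to 12.2%). Pdia6 went from 1.99% to 2.92% and Ern2 from 1.05% to 1.70%. Pdia4, Xbp1, Ern1, Edem2, Sec61b and Selenos also took larger shares.

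In the other direction, Calr took 10.8% of the member reads in the WT library (10.5% to 11.2%) and 8.62% in the library labelled ERAP1+/- (8.38% to 8.87%). Atf4 went from 4.68% to 3.33% and Ddit3 from 0.878% to 0.448%. P4hb, Dnajc3, Atf6, Syvn1, Sel1l and Derl1 also took smaller shares. A share can fall without a lower level: under TMM the ratios of P4hb, Dnajc3 and Sel1l were 1.02, 1.01 and 1.00. Their intervals included 1, as did those of Syvn1 and Derl1. Hspa5 held 13.7% and 13.2%, with overlapping intervals. These shares describe the make-up of the set in the 2 libraries, whatever the scaling.

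**Figure D3:**
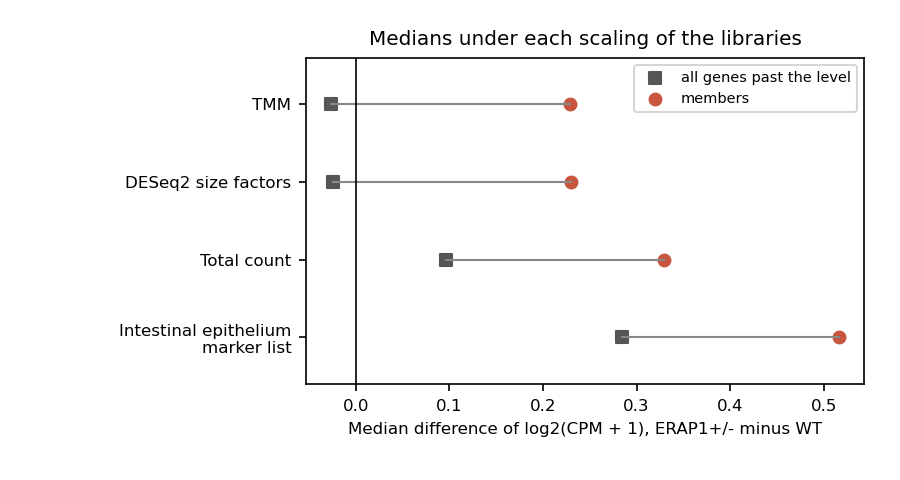
Median difference of log2(CPM + 1), ERAP1+/- minus WT, for the 38 members (circles) and for all 8013 genes at the level (squares) under 4 ways of scaling the libraries. A scaling moves all genes nearly alike, so both medians move together, with a gap of 0.23 to 0.26.

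Scaling by the total count moved the median of all genes by 0.12 on the log2 scale and scaling to the 19 epithelial markers moved it by 0.31. A scaling moves all genes nearly alike, so that the place of the members relative to all genes is set by arithmetic and is given as a description only. The gap between the member median and that of all genes was 0.25 under TMM, 0.26 with DESeq2 size factors, 0.23 with the total count and 0.23 with the epithelial markers. The 31 members above the median of all genes and the 7 below it were therefore the same under all 4 scalings, the latter being Calr, Atf4, Atf6, Eif2ak3, Ddit3, Syvn1 and Derl1. With the total count, 2 members passed 2-fold, Ern2 and Edem2, against 5.15% of all genes at the level. With the epithelial markers 4 did, Pdia6 and Ern1 as well, against 6.1% of all genes. A threshold of 1.5-fold under TMM was passed by 6 of the 34 members at the level and by 15.6% of all genes, and counts this small are given as a description only.

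Other genes of the same pathways were described from 5 lists, which hold no member. Of the 145 other genes with at least 10 reads over both libraries, 91 were higher and 54 lower, with a median log2 difference of 0.06. Of the 114 at the level used above, 2 were higher and 2 lower past 2-fold. The median of these lists thus lay between that of all genes and that of the members. The other genes of translocation and N-glycosylation had a median of 0.22 over 29 genes, 24 of them higher. Among them Rpn1, a subunit of the enzyme that attaches N-glycans, had 1746 and 2529 reads (ratio 1.21, 1.14 to 1.29), while Sec62, Magt1, Ostc and Stt3b had ratios from 0.943 to 1.04.

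Other folding enzymes had a median of 0.10 over 40 genes, 30 of them higher. Pdia5, an isomerase, had 99 and 293 reads, a ratio of 2.47 (1.96 to 3.14), and Lman1, a cargo receptor for export from the ER, had 482 and 1170 reads, a ratio of 2.03 (1.82 to 2.26). These were the genes of the 5 lists that were higher past 2-fold. Agr2, an isomerase known for mucin folding in goblet cells, had 2225 and 4956 reads (ratio 1.86, 1.77 to 1.96). Of the others with most reads, Ppib (1.35) and Tmx1 (1.17) had ratios above 1 and Qsox1 (1.03) and Uggt1 (0.981) had intervals that included 1.

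Other genes of degradation were balanced, with 12 higher and 13 lower and a median of -0.00. Vcp, the p97 ATPase, had 2046 and 2602 reads (ratio 1.06, 1.00 to 1.13), and Os9, a lectin of the degradation complex, 890 and 943 (ratio 0.885, 0.807 to 0.971). Ubxn4, Aup1 and Ufd1 had ratios of 1.05, 1.04 and 0.872. No excess of higher genes was seen in this list under TMM, where 47.3% of all genes at the level were higher. With scaling to epithelial markers 21 of the 25 were higher, as were 78.7% of all genes at the level. Other sensors and regulators had a median of 0.19, with 13 higher and 9 lower of 22. Creb3l1, a relative of ATF6, had 1169 and 2288 reads (ratio 1.63, 1.52 to 1.76), whereas Tmbim6 (0.919) and Ptpn1 (0.813) had lower ratios, and Mbtps1, the protease that cuts ATF6, and Serp1 had ratios of 1.27 and 1.14.

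The targets of PERK and ATF4 had a median of -0.05 over 29 genes, near that of all genes, with 12 higher and 17 lower. At the level used above, 2 genes passed 2-fold and both were lower. Atf3, a stress-induced transcription factor, had 696 and 222 reads, and was 3.75-fold lower (3.22 to 4.39). Ppp1r15a, which encodes GADD34, the factor that restores translation after PERK activity, had 198 and 80 reads and was 2.96-fold lower (2.27 to 3.89). Both genes are also known to answer to stimuli other than PERK. Among the genes with most reads, Slc3a2, an amino acid transporter subunit, had 894 and 627 (ratio 0.586, 0.528 to 0.650), Ppp1r15b had a ratio of 0.777, the aminoacyl-tRNA synthetases Sars and Nars had 0.848 and 0.926, and Ddit4 had 1.00. These directions are under TMM. The list turned to 17 higher and 12 lower with the total count (median 0.05, where that of all genes was 0.10). With the epithelial markers it turned to 20 and 9 (median 0.21, where that of all genes was 0.28). Its median lay below that of all genes under TMM and under both of these scalings. Atf3, Ppp1r15a, Slc3a2 and Ppp1r15b were lower under every scaling tried. Of the other genes named with ratios below 1, Uggt1, Sec62, Tmbim6 and Nars turned above 1 with both of these scalings, and Os9, Ufd1, Ptpn1 and Sars with the epithelial markers only. The split of all genes past 2-fold was 111 higher and 317 lower under TMM, 166 and 248 with the total count, and 304 and 192 with the epithelial markers.

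**Figure D4:**
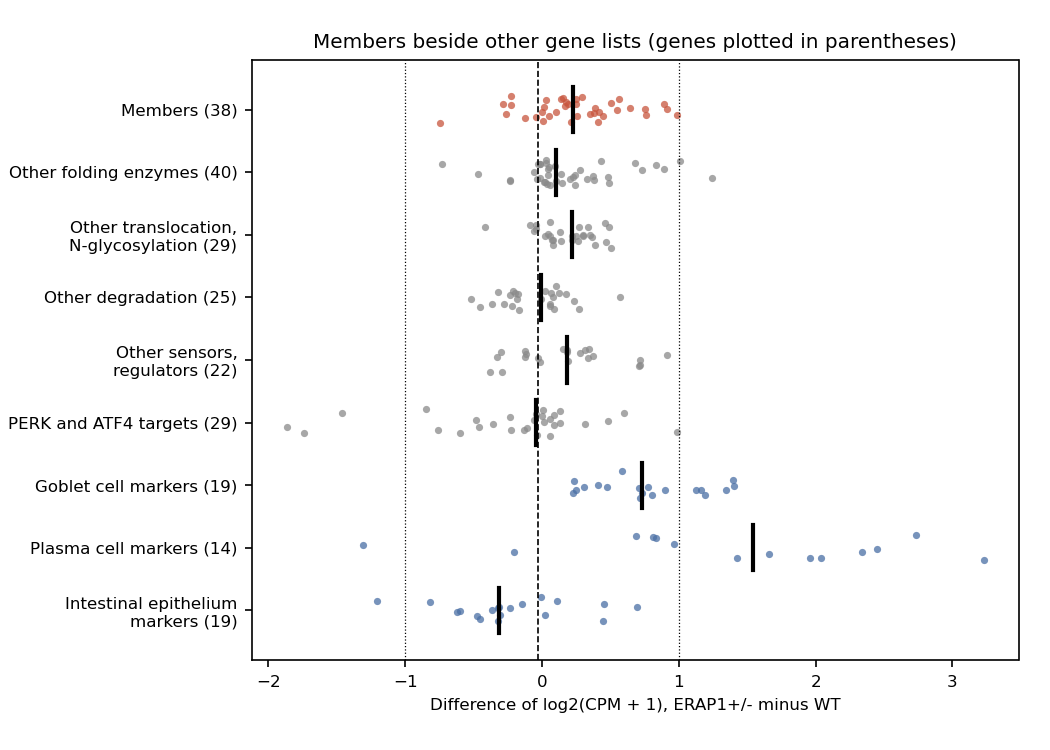
Difference of log2(CPM + 1), ERAP1+/- minus WT, for each gene with at least 10 reads in the members, the 5 lists of other pathway genes and 3 lists of cell type markers, under TMM scaling. Thick bars are medians, the dashed line is the median of all genes (-0.03) and dotted lines mark 2-fold. The goblet (0.73) and plasma cell (1.54) medians lie to the right of the member median (0.23), and the epithelium median (-0.32) lies to the left.

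Markers of secretory cells also differed between the libraries. All 19 goblet cell markers were higher in the library labelled ERAP1+/-, with a summed level of 10081 CPM in WT and 16705 CPM in ERAP1+/-, a ratio of 1.66, and log2 differences from 0.23 to 1.41. Muc2, the main mucin of the colon, had 12020 and 32939 reads. The ratio of Ern2 (1.87) lay within the range of these markers, as did those of Agr2 and Creb3l1, the latter being itself on the goblet list. Of the 14 plasma cell markers with enough reads, 12 were higher and 2 lower, and the summed level was 500 CPM in WT and 2144 CPM in ERAP1+/-. The lower ones were Sdc1 (ratio 0.868) and Prdm1 (ratio 0.383). No marker of either list was at 0 in either library. The lists were chosen with earlier results of these data known. The study had reported Hepacam2 on the goblet list as higher, and Igha, Igkc, Jchain and Mzb1 on the plasma cell list. The summed level of the 38 members differed less than either list, with 4707 and 5422 CPM, a ratio of 1.15. The part of these cell types in the differences of the ER genes was not tested.

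Other tissues that use the ER heavily or that stood apart between the libraries were also looked at. Of 12 exocrine pancreas markers, 1 had at least 10 reads, Cela1, and Pnlip, Amy2a5, Cel and Cela3b were at 0 in both libraries. The intestinal epithelium markers had a median log2 difference of -0.32 under TMM, with 5 of 19 higher. Markers of suprabasal epidermis summed to 3922 CPM in WT and 54.7 CPM in ERAP1+/-, and those of skeletal muscle to 1823 and 187 CPM. Of the 20 epidermal markers, 8 were at 0 in the library labelled ERAP1+/-, as were 2 of the 20 muscle markers. The study had reported Flg, Lor, Ivl, Dsc1, Sbsn, Cdsn and Spink5 on the epidermal list as lower, and Ttn, Neb and Atp2a1 on the muscle list. The lists are therefore not independent of its result. The WT library held more RNA of skin and striated muscle genes, and what these tissues contribute to the reads of ER genes was not tested.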

How the data were processed

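For each pooled library the authors deposited 1 file of raw counts by gene symbol, not normalized, with totals of 8114826 (WT) and 8907515 (ERAP1+/-). Libraries were made with a 3' mRNA kit and read as single ends of 75 bases. The study's text gives STAR with HTSeq in 1 place and Bowtie2 with RSEM in another, and the submitters' processing notes name Bowtie2, RSEM and GRCm38. These tools treat reads shared between gene copies differently. The trimming tool was bbduk.

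The TMM factors from edgeR 4.0.16 (R 4.3.3) were 0.958 and 1.04, and CPM used the scaled totals. The interval of each ratio is the exact binomial one given both counts (scipy 1.17.1). The quasi-likelihood test cannot be fitted to 1 library per genotype. A gene counted as past 2-fold on the log2(CPM + 1) scale with a value of at least 4 in 1 or both libraries. Alternatives were DESeq2 1.42.0 size factors, the total count, an epithelial marker list, a pseudocount of 0.1, other filters, a 1.5-fold threshold and thinning of the ERAP1+/- library.

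Every member is described or counted. Other pathway genes are named where they passed 2-fold or were among the 5 with most reads in their list. The members and lists were chosen with earlier results of these data known. Gene positions are from GENCODE M21 and promoters from RefSeq, both on GRCm38. Exons of 12 of the 40 genes overlap another gene's. Protein sequences were not used here.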

Additional observations from a re-analysis of the deposited data

How the results depend on the processing

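The number of members past 2-fold was 0. Each changed alone, DESeq2 size factors, a pseudocount of 0.1, no filter on low values and a filter of 10 reads also gave 0. The number was 2 with the total count (5.15% of all genes) and 4 with scaling to the epithelial markers (6.1%). A 1.5-fold threshold gave 6 (5 higher and 1 lower), where 15.6% of all genes at the level passed. Among the 34 members at the level, intervals below 1 numbered 4, and 2 with the total count and 1 with the epithelial markers. Of all genes at the level, 32.4% had such an interval under TMM and 22.2% with the total count. The median log2 difference was 0.23, and 0.33 and 0.52 with these scalings. Intervals above 1 ranged from 21 to 29 over the scalings and thinning. Of all genes at the level, 25.5% had one under TMM and 38.3% with the total count. The count of 29 was with the epithelial markers, for which the interval shares of all genes were not counted. Taking in Ero1a and Ero1b, an alternative chosen after seeing the data, changed no count by more than 1.5 times. Of 40 single genes, 1 changed sign with the total count and 6 with the epithelial markers, because both scalings move all ratios upward. No paired analysis was possible because there is only 1 library of each genotype, and for the same reason none could be left out. Depth limits Derl3, Ero1b and Trib3, which had at most 27 reads in a library. Derl3, under the level, had a log2 difference of 0.99, and of 1.66 with the pseudocount of 0.1.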

Other observations

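Marker lists not described with the ER genes differed as well, under TMM scaling. All 10 smooth muscle markers were lower in the library labelled ERAP1+/-, with summed levels of 11566 CPM in WT and 5921 CPM in ERAP1+/-. All 12 markers of basal stratified epithelium were lower (949 and 377 CPM, and 11 of 12 with scaling to the intestinal epithelium markers). So were 8 of the 9 sebaceous gland markers with enough reads (397 and 160 CPM). The study had reported Krt15, Krt17 and Trim29 of the basal list and Scd3 of the sebaceous list as lower. Fibroblast markers, of which 8 of 10 were lower but 3 of 10 with scaling to the epithelial markers, summed to 3567 and 3025 CPM. Macrophage markers, of which 7 were higher and 3 lower, summed to 252 and 324 CPM. T and NK cell markers summed to 9.65 and 13.2 CPM, from 75 and 123 reads over 12 genes, none of which reached the level. Paneth cell markers summed to 29.1 and 113 CPM. Of 10, 4 had at least 10 reads and 3 of these were higher. Ang4 had 114 and 911 reads (ratio 6.68, 5.49 to 8.18). At 14.7 CPM in WT and 97.9 CPM in ERAP1+/-, it made up most of the sum in the latter. Lyz1 was lower, with 89 and 51 reads (ratio 0.479, 0.332 to 0.683). Defa17, Defa21, Defa22, Defa24 and Defa30 were at 0 in both libraries. The study had reported Ang4 of the Paneth list as higher. The part of these cell types in the differences of the ER genes was not tested.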
